A study of Mus musculus with 2 samples.

Results

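The gastric chief cell secretes pepsinogens, inactive forms of the protein-cutting enzyme pepsin that acid turns on in the stomach lumen. In the mouse the same cell also releases gastric intrinsic factor, the carrier that takes vitamin B12 to its receptor in the ileum. In the human stomach that carrier comes mainly from parietal cells. Chief cells load these proteins into large zymogen granules, and the transcription factor Bhlha15, also called Mist1, drives the build-up of that secretory apparatus in mouse chief cells. The genes described here were a list of 7 named chief cell secretion genes out of 38087 gene identifiers in the deposited tables. They were taken by name, and comprised the aspartic protease zymogens Pgc, Pga5 and Cym, the gastric lipase gene Lipf, the intrinsic factor gene Cblif, the transcription factor gene Bhlha15 and the export factor gene Mia2. All 7 were found among the identifiers, Cblif under its older symbol Gif.

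The study measured total RNA, depleted of ribosomal RNA, in parietal cells sorted from the stomachs of C57BL/6 mice. It compared mice fed a high fat diet (HFD) with control mice and asked how the diet changed the transcripts of these cells. Each diet had 1 library (called HFD cells and control cells below), so no difference could be tested and every comparison is between these 2 libraries. The sources used here give neither the age of the mice, the length of feeding, the number of animals per library nor the sorting markers. Values are RPKM, reads per kilobase of gene scaled to library depth, and the tables list a gene at or below 1 RPKM as 0. The spacing of the values gave a depth of 25.5 M reads in HFD cells and 9.84 M in control cells. Intervals are approximate 95% intervals from reads estimated with that depth. They cover counting error only and carry no information on variation between mice.

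The sorted cells were labelled parietal, so levels of parietal and chief cell genes in these libraries were set side by side. The subunits of the proton pump, which mark parietal cells, were abundant, with Atp4a at 4997 RPKM in HFD cells and 4324 in control cells. Pgc stood above both pump subunits in both libraries. Of the 5 chief cell markers used (Pgc, Pga5, Cblif, Bhlha15 and Lipf), 4 were listed in both libraries and Lipf was listed at 0 in both. All 5 are among the 7 genes, so their levels cannot check the chief cell label of these genes. The libraries thus held transcripts of genes known from chief cells beside parietal ones. Which cells they came from was not tested, and levels of the 7 genes are levels in the whole sorted sample. In such bulk samples fewer chief cells and less of a transcript per chief cell cannot be told apart.

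The genes lie on 5 chromosomes of the mm10 assembly, 3 of them on chromosome 19. The stretch of 70 bases that precedes the RefSeq start of 4 of the genes is shown here, because the most abundant gene and the least abundant listed gene share a core promoter motif. Capitals mark TATAAA, the letters of a TATA box, searched on the gene's own strand, and each line runs 5′ to 3′ up to the last base before the start.

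Pgc: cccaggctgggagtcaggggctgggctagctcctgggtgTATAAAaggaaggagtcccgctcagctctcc
Cym: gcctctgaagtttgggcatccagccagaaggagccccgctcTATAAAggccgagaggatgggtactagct
Cblif: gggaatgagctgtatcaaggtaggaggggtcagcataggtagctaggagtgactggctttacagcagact
Bhlha15: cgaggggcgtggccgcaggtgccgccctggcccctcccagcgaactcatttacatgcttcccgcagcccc

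The sequences are from RefSeq on GRCm38.p6, the mm10 assembly, and cover chr17:47726772-47726841 (plus strand) for Pgc, chr3:107221733-107221802 (minus strand) for Cym, chr19:11747489-11747558 (plus) for Cblif and chr5:144190216-144190285 (plus) for Bhlha15. Gene positions given further on are those of GENCODE, whose start of Cblif puts the last 5 bases of its stretch inside the gene. TATAAA began at position -31 before the start of Pgc and at position -29 before that of Cym. It was not among the letters of the other 2 stretches. Near forms, such as TATATAAG in the stretch before Lipf (not shown), were not searched. Of all 32851 promoter stretches in the table, 3.14% held TATAAA in the 70 bases before the start. The stretches shown also differed in base composition, from 51.4% G and C at Cblif to 71.4% at Bhlha15. The E-box forms CATATG and CAGCTG, which Bhlha15 is known to bind, were searched in the full windows of 300 bases, which run from 250 before to 50 after the start. Both forms read the same on both strands. CAGCTG was in 0 of 8 windows of 6 of the genes, against 16.3% of all windows. CATATG was in 1, a window at a start inside Mia2, at position -124, against 3.91% of all windows. TATAAA was in 2 of the 8 windows, those of Pgc and Cym, against 8.32% of all windows. No window was available for Pga5. These matches describe the letters only.

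Pgc encodes pepsinogen C, also called progastricsin. It was the most abundant protein-coding gene of both libraries, and its level was 2.24 times lower in HFD cells. Pgc (ENSMUSG00000023987, chr17:47726842-47734482, plus strand) stood at 45624 RPKM in HFD cells and 102292 RPKM in control cells. The ratio of HFD to control was 0.446, with an interval of 0.445 to 0.447. Its width is set by about 1614491 estimated reads in HFD cells and 1396476 in control cells. Pgc alone held about 6.33% of all reads in HFD cells and 14.2% in control cells. Its lead over the next protein-coding gene also differed. In the HFD library Pgc stood 2.10 times above Gkn1, a pit cell secretory gene, whereas in control cells it stood 7.88 times above Clps, the gene of the lipase cofactor colipase. Of 9997 protein-coding genes listed in both libraries, 9.67% had a lower ratio than Pgc.

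Pga5, a pepsinogen of the A family, was far less abundant than Pgc and differed more between the libraries. Pga5 (ENSMUSG00000024738, chr19:10668956-10678071, minus strand) stood at 20.1 RPKM in HFD cells and 79.4 RPKM in control cells. It was 3.95 times lower in HFD cells, with a ratio of 0.253 and an interval of 0.231 to 0.276. By level it was number 1982 among protein-coding genes in HFD cells and number 319 in control cells. Only 2.19% of the protein-coding genes listed in both libraries had a lower ratio. The pepsinogens therefore differed from each other as well as between libraries. Pgc stood 2272 times above Pga5 in HFD cells and 1289 times above it in control cells, a change of 1.76-fold (interval 1.62 to 1.93) that no rescaling of a library can alter.

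Cym encodes chymosin, the milk-clotting protease best known from the stomach of calves. Cym (ENSMUSG00000046213, chr3:107211293-107221732, minus strand) was listed at 4.35 RPKM in HFD cells, which is about 137 reads, and at 0 in control cells. It thus went the other way from both pepsinogens, at a level far below theirs. The same level would have given about 52.9 reads at the depth of the control library, whereas a gene of its length listed at 0 there can hold at most about 12.2 reads. No fold is given against a value listed at 0. The protein-coding neighbours of Cym on either side, Kcna10 and A630076J17Rik, were listed at 0 in both libraries. No stretch of 25 bases was shared by the annotated transcripts of Pgc, Pga5, Cym, Ctse and Ctsd in any of their 10 pairs.

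Lipf, whose product is the acid-stable lipase of the human and canine stomach, was listed at 0 in both libraries. For Lipf (ENSMUSG00000024768, chr19:33961187-33976810, plus strand) the floor of 1 RPKM corresponded to about 36.0 reads in HFD cells and 13.9 in control cells. Lower levels were not detectable in the tables as deposited.

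**Figure D1:**
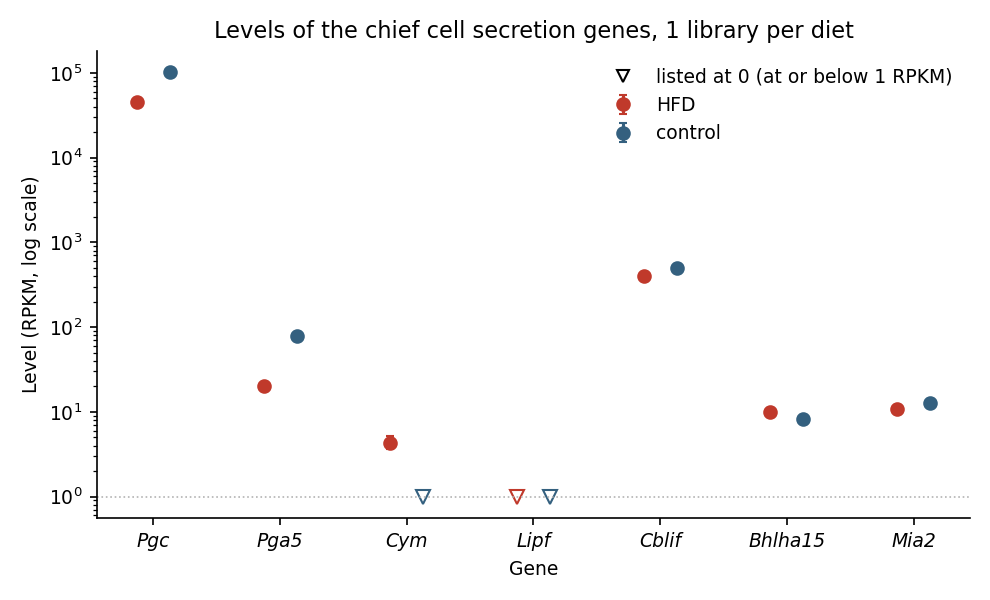
Level of each of the 7 genes in HFD cells (red, left) and the control library (blue, right), in RPKM on a log axis; points are single libraries, bars are 95% counting intervals where wider than the point, and open triangles mark genes listed at 0. Pgc stands at 45624 and 102292 RPKM, Pga5 at 20.1 and 79.4 RPKM, and Cym is listed in HFD cells only.

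Cblif differed much less between the libraries than the pepsinogens did. Cblif (ENSMUSG00000024682, chr19:11747554-11763447, plus strand) stood at 397 RPKM in HFD cells and 494 RPKM in control cells. The ratio was 0.802, with an interval of 0.781 to 0.825, so that it was 1.25 times lower in HFD cells as deposited. By level it was number 40 among protein-coding genes in HFD cells and number 36 in control cells. Pgc stood 115 times above Cblif in HFD cells and 207 times above it in control cells, and the ratio of these ratios was 0.556 (interval 0.541 to 0.571). Cblif stood 19.8 times above Pga5 in HFD cells and 6.23 times above it in control cells. The products of chief cells thus kept no fixed proportion between the libraries, and intrinsic factor made up a larger part relative to either pepsinogen in HFD cells.

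Bhlha15 was slightly higher in HFD cells as deposited, opposite to the pepsinogens, but turned lower under 1 of the scalings given further on. Bhlha15 (ENSMUSG00000052271, chr5:144190286-144194441, plus strand) stood at 10.1 RPKM in HFD cells and 8.24 RPKM in control cells. Its ratio was 1.22, with an interval of 1.07 to 1.40. About 896 reads lay behind the HFD value and 283 behind the control value. The annotated 3′ end of Tecpr1, a gene of the opposite strand, adjoins that of Bhlha15 with no base between them, and Tecpr1 stood at 15.3 RPKM in HFD cells and 13.9 in control cells. The sources used here do not say whether the counting used strand.

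Mia2 encodes a protein of endoplasmic reticulum exit sites that takes part in the export of large cargo. Mia2 (ENSMUSG00000021000, chr12:59095799-59191583, plus strand) stood at 10.9 RPKM in HFD cells and 12.6 RPKM in control cells, a ratio of 0.864 (interval 0.811 to 0.921). An intron of Mia2 holds the small nucleolar RNA gene Gm24233, with 115 RPKM in HFD cells and 15.1 RPKM in control cells. Its reads came to 11.4% of the Mia2 reads in HFD cells and 1.30% in control cells. None of its 122 bases is in an annotated exon of Mia2, and the sources used here do not say whether introns were counted. The counting intervals of Bhlha15 and Mia2 overlapped in HFD cells (9.41 to 10.7 and 10.5 to 11.3 RPKM), whereas in control cells they did not (7.30 to 9.25 and 11.98 to 13.3 RPKM). Compared directly, the ratio of Mia2 to Bhlha15 was 1.09 in HFD cells and 1.53 in control cells. The ratio of these ratios was 0.708 (interval 0.611 to 0.821). The order of the listed genes by level was Pgc, Cblif, Pga5, Mia2 and Bhlha15 in both libraries, followed by Cym in HFD cells.

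Over the whole list, 2 of the 6 genes listed in either library (Pgc and Pga5) were over 2-fold lower in HFD cells on the log2(RPKM + 1) scale, and 23.9% of all 16037 measured genes were. Cym alone was over 2-fold higher, as were 12.5% of measured genes. Among measured protein-coding genes these shares were 20.1% lower and 8.02% higher. The median difference of the 6 genes was -0.26 on that scale (0.03 when scaled to the total of protein-coding genes), against -0.13 over all measured genes and -0.11 over measured protein-coding genes. As a count the list therefore lay near the background. Its share of the libraries rested on Pgc, since the 7 genes summed to 46066 RPKM in HFD cells and 102887 RPKM in control cells.

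**Figure D2:**
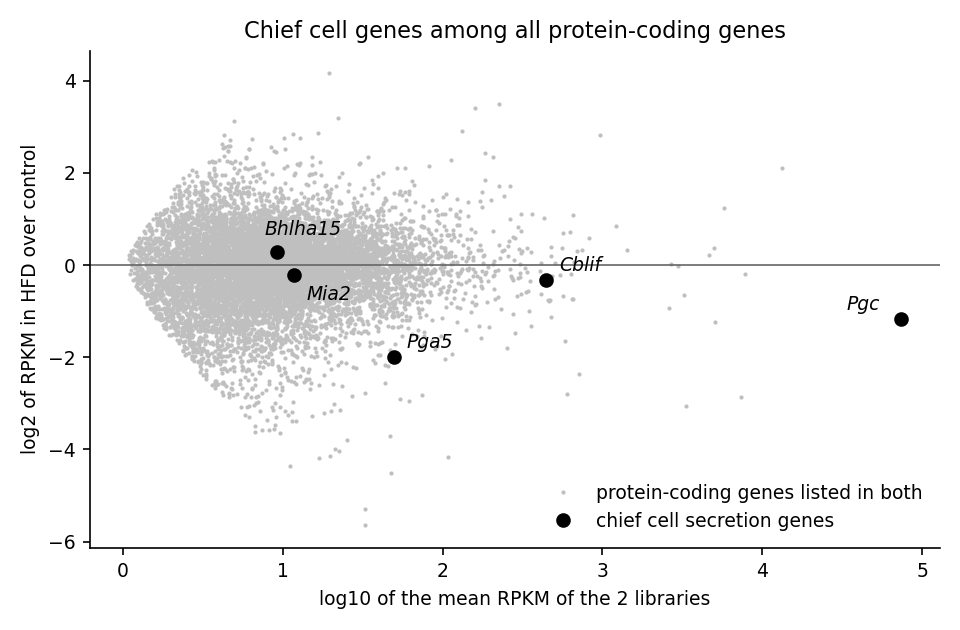
The log2 ratio of RPKM in HFD cells over the control library (vertical axis) against log10 of the mean RPKM of both libraries (horizontal axis), for 9997 protein-coding genes listed in both (grey) and the 5 chief cell secretion genes listed in both (black). Pgc is the point farthest to the right, Pga5 has the lowest ratio of the black points, and Cblif, Mia2 and Bhlha15 lie near 0.

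The scale of the libraries mattered for the genes with small differences. The median ratio and the upper quartile of protein-coding genes moved the HFD values by 0.04 and 0.06 on the log2 scale. The total of protein-coding genes, 28.8% of which was Pgc itself in control cells, moved them by 0.29. The total that leaves out the 20 most abundant genes of either library moved them by -0.57, and the reads outside Pgc by -0.13. Pga5 was over 2-fold lower under each of these scalings. Pgc was lower under each, but at -0.87 it no longer passed 2-fold when scaled to the total of protein-coding genes. Cblif had a negative difference under each, between -0.89 and -0.02. With the total of protein-coding genes (-0.02) it was about equal, at 0.137% of protein-coding RPKM in HFD cells and 0.139% in control cells. That difference is smaller than its counting error, so no direction is given for Cblif under that scaling. Bhlha15 turned to -0.25 when the 20 most abundant genes were left out of the total, and Mia2 turned to 0.08 with the total of protein-coding genes, so no direction is given for either.

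**Figure D3:**
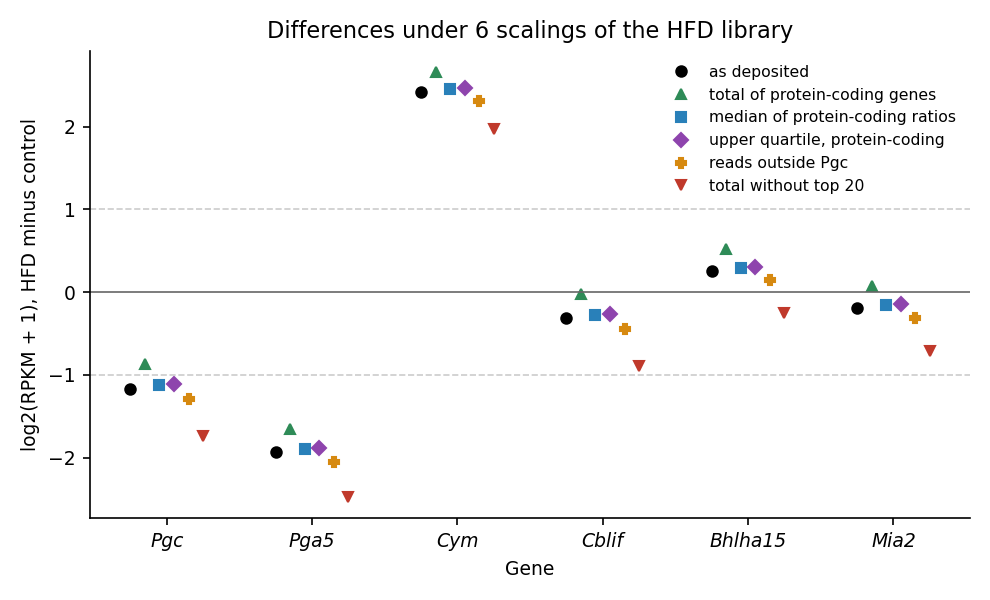
Difference of HFD minus control in log2(RPKM + 1) for the 6 genes listed in either library, under 6 scalings of the HFD library (symbols); dashed lines mark 2-fold. Pga5 lies below the lower dashed line under each, Pgc under all but the total of protein-coding genes (-0.87), Cym lies above the upper line with its control value listed at 0, and Bhlha15 and Mia2 cross 0.

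Other genes known from mouse chief cells went both ways as deposited. Of a list of 14, 13 were listed in either library, with a median of -0.41. As deposited 5 were higher and 8 lower in HFD cells, and 56.0% of all measured genes were lower. With the 20 most abundant genes left out of the total, 1 was higher and 12 lower. The median was then -0.96, against -0.60 over all measured genes. As deposited 4 were over 2-fold lower, beside 23.9% of all measured genes, and 0 over 2-fold higher. Of these, Rab26 and Tnfrsf19 were listed at 0 in HFD cells and at 1.06 and 1.25 RPKM in control cells, and pass 2-fold only through the floor; with 0 entered as 1 RPKM, 2 were over 2-fold lower. Clps, colipase, differed most, at 1790 RPKM in HFD cells and 12989 in control cells, 7.26 times lower. Chia1, an acidic chitinase of the mouse stomach, stood at 2532 RPKM in HFD cells and 3959 in control cells, a ratio of 0.640 (interval 0.634 to 0.646). The secretory transcription factor gene Xbp1, which acts upstream of Bhlha15, stood at 147 RPKM in HFD cells and 102 in control cells. The mucosal glycoprotein gene Dmbt1 stood at 106 RPKM in HFD cells and 72.2 in control cells. The secretory pathway calcium pump gene Atp2c2 stood at 4.37 RPKM in HFD cells and 2.10 in control cells. Its ratio without a pseudocount was 2.08 (interval 1.59 to 2.73), so it passed 2-fold on that measure only. Thus the abundant secreted products Pgc, Clps and Chia1 were all lower in HFD cells, whereas Xbp1, Dmbt1 and Atp2c2 were higher as deposited. Clps is also 1 of the 19 pancreatic acinar markers given further on, of which 17 were over 2-fold lower, beside 23.9% of all measured genes. The ratio of Xbp1 was 1.44 (interval 1.39 to 1.50). On the log2 scale the excesses of Xbp1 (0.52) and Dmbt1 (0.54) are smaller than the shift of -0.57 described above, so their direction depends on the scaling. The granule gene Rab3d had 73.3 RPKM in HFD cells and 72.3 in control cells. Rab3d and 3 further chief cell genes (Runx1, Nupr1 and Lgr5) were named after their values were seen. Runx1 stood at 4.41 RPKM in HFD cells and 8.62 in control cells, and Nupr1, a stress-induced nuclear protein gene, at 3.80 RPKM in HFD cells and 20.4 in control cells. Lgr5, a receptor of stem cells and of some chief cells, was listed at 0 in both.

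**Figure D4:**
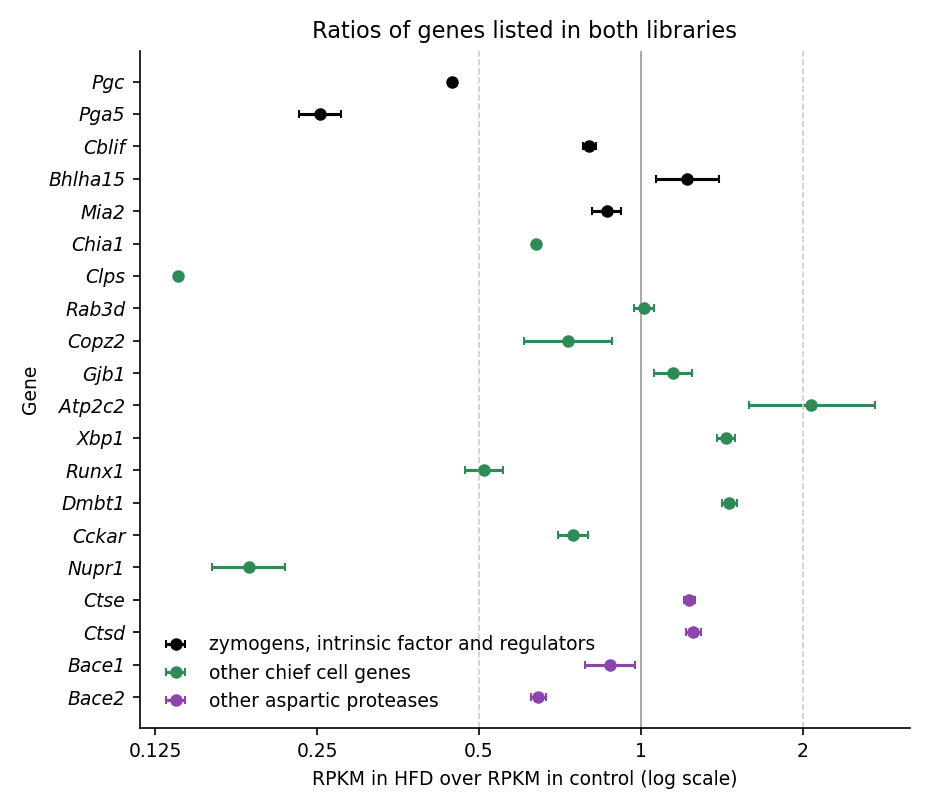
Ratio of RPKM in HFD cells over the control library (log axis) with 95% counting intervals, for the zymogen, intrinsic factor and regulator genes listed in both libraries (black), other chief cell genes (green) and other aspartic proteases (purple). Solid and dashed lines mark equality and 2-fold. Pgc (0.446), Pga5 (0.253), Clps (0.138) and Nupr1 (0.187) lie left of the lower 2-fold line, and Atp2c2 (2.08) lies right of the upper one. Ctse and Ctsd lie right of equality as deposited, by less than the largest shift between scalings.

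As deposited, no aspartic protease outside the zymogens passed 2-fold in either direction; with the 20 most abundant genes left out of the total, Bace2 stood at -1.18 and passed. Cathepsin E, encoded by Ctse and known from surface mucous cells, stood at 348 RPKM in HFD cells and 282 in control cells, a ratio of 1.23 (interval 1.20 to 1.26). The lysosomal cathepsin D gene Ctsd stood at 269 RPKM in HFD cells and 215 in control cells. The membrane protease genes Bace1 and Bace2 had ratios of 0.875 and 0.645, and Napsa and Ren1 were listed at 0 in both libraries. The median of the 4 listed was 0.07. The excess of Ctse and Ctsd (0.30 and 0.32 on the log2 scale) is smaller than the largest shift between scalings, so no direction is given for them. Relative to Ctse, Pgc stood 131 times higher in HFD cells and 362 times higher in control cells. Of 8 genes of the acid lipase family besides Lipf, 2 were listed. The lysosomal lipase gene Lipa stood at 4.09 RPKM in HFD cells and 5.71 in control cells, and Lipo3 at 3.92 RPKM in HFD cells and 2.11 in control cells.

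Few genes of vitamin B12 uptake and use passed 2-fold. Of 15, 12 were listed in both libraries, 1 over 2-fold lower and 0 over 2-fold higher, with a median of -0.07. Among all measured genes 23.9% were over 2-fold lower and 12.5% higher. The exception was Cd320, the cell surface receptor for the vitamin bound to transcobalamin, at 1.64 RPKM in HFD cells and 6.37 in control cells. Tcn2, transcobalamin itself, stood at 36.0 RPKM in HFD cells and 47.3 in control cells, and Mmut, the mitochondrial mutase that uses the vitamin, at 27.1 RPKM in each. Abcc1 and Mmaa had ratios of 1.52 and 1.60, and Mmadhc 0.952. Cubn and Amn, which form the ileal receptor for intrinsic factor, and Lrp2 were listed at 0 in both libraries.

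Few genes of the export machinery in which Mia2 acts passed 2-fold. Among 18 genes of endoplasmic reticulum export, 1 was over 2-fold higher (Sar1b, a coat GTPase, at 39.8 RPKM in HFD cells and 18.2 in control cells). Mia was over 2-fold lower, listed at 0 in HFD cells and at 1.24 RPKM in control cells. It passes only through the floor, and with 0 entered as 1 RPKM 0 were over 2-fold lower. The shares of all measured genes were 12.5% higher and 23.9% lower. The median was 0.04. Sec31a, Sar1a and Sec24c, parts of the coat, had ratios of 1.10, 1.22 and 1.15, and the cargo receptor gene Surf4 had a ratio of 0.575. Of 7 genes that dimerise with or hold back basic helix-loop-helix factors such as Bhlha15, 6 were lower in HFD cells as deposited, as were 56.0% of all measured genes, with a median of -0.31. Scaled to the total of protein-coding genes the median was -0.04 and 4 were lower, with Tcf4 at 0.17 and Id3 at 0.02. Id1 was over 2-fold lower as deposited, though not under that scaling, at 52.7 RPKM in HFD cells and 120 in control cells, Id2 had a ratio of 1.10, Id3 0.829 and the E protein gene Tcf3 0.623.

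The gene whose ratio lay nearest to that of Pgc, among 12 other protein-coding genes of at least 1000 RPKM in both libraries, was Pla2g1b, a secreted phospholipase A2 gene, at 2995 RPKM in HFD cells and 7087 in control cells. Its log2 ratio lay 0.08 from that of Pgc, so that Pgc stood 15.2 times above it in HFD cells and 14.4 times above it in control cells. Lars2 (1784 RPKM in HFD cells and 3419 in control cells) lay 0.23 away, Chia1 0.52, Tff2 0.98 and Tff1 1.14. This likeness rests on 2 libraries only.

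Markers of other cells differed beside these results. All 10 parietal markers were listed, and they summed to 11115 RPKM in HFD cells and 8975 in control cells, with a median of 0.75. As deposited 9 were higher in HFD cells. Over 2-fold higher were 4 (Slc26a7, Hrh2, Vegfb and Aqp4), beside 12.5% of all measured genes. With the 20 most abundant genes left out of the total, 6 were higher and 1 over 2-fold higher. Pgc stood 8.09 times above the pump subunit gene Atp4b in HFD cells and 23.4 times above it in control cells. Besides Atp4b (ratio 1.29) and Atp4a (1.16), Kcnq1 had a ratio of 1.39, Slc26a9 1.89, Vegfb 3.04 and Kcne2 0.907. Of 7 pit cell markers 6 were listed, summing to 36072 RPKM in HFD cells and 14524 in control cells, led by Gkn1 and Gkn2 with ratios of 4.33 and 2.38, beside Tff1 (0.986) and Psca (1.02). The 7 neck cell markers summed to 7662 RPKM in HFD cells and 8706 in control cells, with Tff2 at a ratio of 0.881, Muc6 at 0.923, Gkn3 at 0.346 and Dmbt1, which stands on both lists, at 1.46.

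The 8 gastric endocrine markers summed to 1213 RPKM in HFD cells and 8302 in control cells. Over 2-fold lower were 6 of them (5 with 0 entered as 1 RPKM), beside 23.9% of all measured genes. Among them Ghrl, Sst and Chga had ratios of 0.120, 0.143 and 0.193, and Gast 1.16. Of 19 pancreatic acinar markers, which include Clps, 17 were over 2-fold lower, beside 23.9% of all measured genes. Of the 19, 13 were listed at 0 in HFD cells only and so pass 2-fold by construction. With 0 entered as 1 RPKM, 17 were still over 2-fold lower. The sum of the 19 was 1933 RPKM in HFD cells and 13978 in control cells. Most of it was Clps, also on the chief cell list, with 1790 RPKM in HFD cells and 12989 in control cells. Ctrb1 was listed at 0 in HFD cells and at 159 RPKM in control cells, and the acinar transcription factor gene Ptf1a at 0 in HFD cells and 3.64 RPKM in control cells. Try4 had a ratio of 0.300, whereas the elastase gene Cela1 had one of 0.899. Bhlha15 is also known from pancreatic acinar cells and plasma cells. Of 11 plasma cell markers 8 were listed at 0 in both libraries, among them Jchain, Mzb1 and Irf4. The listed ones were Sdc1 (79.9 RPKM in HFD cells and 70.4 in control cells), Derl3 (8.32 RPKM in HFD cells and 14.2 in control cells) and Igha (15.7 RPKM in HFD cells and 1.28 in control cells). The sum of the pancreatic markers, most of it Clps, and that of the endocrine markers were thus lower in HFD cells together with the pepsinogens. The sum of the pit markers, most of it Gkn1 and Gkn2, was higher. With the 20 most abundant genes left out of the total, 3 of the listed pit markers were higher and 3 lower, with a median of 0.01. The sum of the parietal markers, most of it Atp4a and Atp4b, differed by less than the largest shift between scalings. The part of these markers in the differences of Pgc, Pga5 and Cblif was not tested.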

How the data were processed

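The deposited tables, 1 per library, cover 38087 Ensembl gene identifiers. Per the file headers the column is RPKM; the deposited values were read as log2 of RPKM without a pseudocount, with genes at or below 1 RPKM listed as 0, since the smallest listed values were 1.0006 and 1.0013 RPKM. Per the submitters' processing notes, bedtools 2.25.0 and mm10 were used; the sources used here name no aligner, counting rule or annotation. The extraction and library steps were RNA preparation from sorted cells, DNase treatment, removal of ribosomal RNA and an Ion Total RNA-Seq kit, per the labels' protocols.

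Symbols, positions and exon lengths came from GENCODE M21 on GRCm38 (mm10), which matched 36308 identifiers. Depth came from the step of RPKM times length in single-exon genes (whole within 0.005 of a step for 49.7% of 189 low values in the HFD library and 35.6% of 727 in the control library). Ratios carry exact conditional binomial intervals, levels exact Poisson intervals, and ratios of ratios normal intervals on the log scale. These are approximate, since lengths may differ from those the authors used and PCR copies could not be told from separate molecules. A gene was measured if listed in either library, and differences are log2(RPKM + 1) in HFD minus control, which understates those of low genes; a gene at 0 in 1 library passes 2-fold by construction. With 1 library per diet no test was run. The genes, 12 lists and markers were chosen with earlier results of these data known. Of each list the 4 most abundant genes were named, and those of highest and lowest ratio (50 reads or more), plus genes near Pgc; others named were chosen after their values were seen. The marker Gkn4 had no match. Steps were tested on simulated data. Python 3.11.15, numpy 2.4.6, pandas 2.3.3, scipy 1.17.1 and matplotlib 3.10.9 were used.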

Additional observations from a re-analysis of the deposited data

How the results depend on the processing

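With 1 library per diet no replicate could be left out. No paired analysis was possible because each diet has 1 library. The scaling to the reads outside Pgc was chosen after seeing the data. On the log2(RPKM + 1) scale the difference was, with the total lacking the 20 top genes, -1.74 for Pgc, -2.47 for Pga5, 1.97 for Cym, -0.89 for Cblif, -0.25 for Bhlha15 and -0.71 for Mia2. With the total of protein-coding genes it was -0.87, -1.65, 2.66, -0.024, 0.53 and 0.076 for the same genes in that order. With the reads outside Pgc it was -1.29 for Pgc, 2.32 for Cym, -0.44 for Cblif and -0.31 for Mia2. With the median ratio of protein-coding genes it was -1.13 for Pgc and 2.45 for Cym, and with their upper quartile -1.11 for Pgc, 2.46 for Cym and -0.26 for Cblif. Cym, listed at 0 in the control library, stood at 5.48 with a pseudocount of 0.1 RPKM and at 2.12 with 0 entered as 1 RPKM. Of 103 medians of the lists under other settings, 97 stayed within the spread of the list's own genes; none of the medians over 2-fold as deposited changed sign, but 9 smaller ones did. These were, with the total lacking the 20 top genes, aspartic proteases (-0.46), acid lipases (-0.31), plasma cell markers (-0.38) and export genes; with the reads outside Pgc, aspartic proteases (-0.05) and export genes (-0.08); with the total of protein-coding genes, the chief cell secretion genes (0.03) and vitamin B12 genes (0.20); and, at a minimum of 5 RPKM, acid lipases (-0.40). The medians outside that interval or range were, with the total lacking the 20 top genes, -0.57 for vitamin B12 genes, -0.49 for export genes and 0.19 for parietal markers. With the total of protein-coding genes they were 0.34 for aspartic proteases and 0.32 for export genes. With a pseudocount of 0.1 RPKM it was -6.23 for pancreatic markers. At a minimum of 5 RPKM, 1393 genes were over 2-fold lower and 1092 higher, against 3833 and 2000 as reported; 1137 were higher with the total lacking the 20 top genes. As a share of protein-coding RPKM in the HFD and control libraries, Pgc held 15.7% and 28.8%, Pga5 0.00693% and 0.0224%, Cblif 0.137% and 0.139%, Bhlha15 0.00347% and 0.00232%, Mia2 0.00377% and 0.00356%, and Cym 0.00150% in the HFD library. Among all genes, small RNA genes included, the rank in the HFD and control libraries was 4 and 2 for Pgc, 2922 and 683 for Pga5, 217 and 110 for Cblif, 5382 and 6461 for Bhlha15, 5046 and 4569 for Mia2, and 8991 for Cym in the HFD library. The cause of these changes was not tested. The floor of 1 RPKM hides Lipf below about 36.0 reads in HFD cells and 13.9 in control cells, and Cym below about 12.2 in control cells.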
